A study of Drosophila melanogaster with 2 samples.

Results

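The 7 bHLH repressor genes of the Enhancer of split complex, E(spl)mdelta-HLH, E(spl)mgamma-HLH, E(spl)mbeta-HLH, E(spl)m3-HLH, E(spl)m5-HLH, E(spl)m7-HLH and E(spl)m8-HLH, were examined for binding of NC2beta in Drosophila melanogaster embryos. They are 7 of the 13945 protein-coding genes annotated on the chromosome arms, and were taken by symbol, with every region whose summit lay in the gene or within 2 kb of it. Binding had been mapped by chromatin immunoprecipitation and sequencing (ChIP-seq) with an antibody against GFP, in a transgenic line that stably expresses NC2beta with GFP at its C-terminus. Both samples were whole embryos of mixed sex, collected from 0 to 24 h, with chromatin sheared to 200 to 800 bp. They were the 2 biological replicates, numbered 1 and 3, of a single group, so every sample carried the fusion and no comparison between groups or test was possible. The antibody field of the labels names NC2beta itself, whereas their description names an anti-GFP precipitation. No untagged line and no control alignment was analysed here. Whole embryos mix all stages and tissues, so more cells with a bound gene and more binding per cell cannot be told apart. No transcript was measured, so neither the expression of the genes nor any cell type could be checked.

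Notch signalling frees the intracellular part of the receptor, which joins the DNA-binding protein Su(H) and switches on the E(spl) genes. Their products are Hes-type repressors that recruit the corepressor Groucho and shut off proneural genes, so that neighbours of a neural precursor do not become neural themselves. NC2, made of NC2alpha and NC2beta, binds the TATA-binding protein on DNA, blocks the entry of TFIIA and TFIIB at TATA promoters, and has been found to favour promoters with a downstream promoter element (DPE). The complex therefore brings together strongly regulated genes and a cofactor whose known action depends on core promoter elements.

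The genes lie on arm 3R between positions 25997621 and 26041008 of build dm6, a span of 43.4 kb. All 7 have 1 transcript, 1 exon and 1 annotated transcription start site (TSS), and they measure 769 to 1305 bp. E(spl)mbeta-HLH and E(spl)m5-HLH are on the minus strand and the other 5 on the plus strand. The core promoters are shown because NC2 acts there. Each line runs 5′ to 3′ on the gene's own strand from −60 to 10, with the TSS at 1 (Release 6 genome from RefSeq), and the capitals mark the TATA box or, in E(spl)mdelta-HLH, its nearest match.
E(spl)mdelta-HLH, chr3R:25997561-25997630, plus strand: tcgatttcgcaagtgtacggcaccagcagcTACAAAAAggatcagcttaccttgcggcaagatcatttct
E(spl)mgamma-HLH, chr3R:25999791-25999860, plus strand: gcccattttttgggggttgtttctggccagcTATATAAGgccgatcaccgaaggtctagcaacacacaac
E(spl)mbeta-HLH, chr3R:26006014-26006083, minus strand: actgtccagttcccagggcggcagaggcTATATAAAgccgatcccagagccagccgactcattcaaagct
E(spl)m3-HLH, chr3R:26021763-26021832, plus strand: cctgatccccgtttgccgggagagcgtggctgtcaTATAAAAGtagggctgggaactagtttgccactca
E(spl)m5-HLH, chr3R:26029726-26029795, minus strand: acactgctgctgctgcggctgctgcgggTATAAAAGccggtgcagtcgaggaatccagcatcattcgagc
E(spl)m7-HLH, chr3R:26036978-26037047, plus strand: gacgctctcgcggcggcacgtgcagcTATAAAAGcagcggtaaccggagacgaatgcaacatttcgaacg
E(spl)m8-HLH, chr3R:26040180-26040249, plus strand: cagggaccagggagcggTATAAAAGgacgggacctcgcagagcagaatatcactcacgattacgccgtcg

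A TATA box was the shared feature of these promoters. The box was read as TATA, then A or T, A, A or T, and A or G, starting between −40 and −20 on the gene's strand. With at most 1 mismatch it was found at 6 of the 7 genes, against 16.6% of all 19253 protein-coding TSSs. Without mismatches it was found at 5 of 7, against 6.31%. The exact boxes began at −34 in E(spl)m7-HLH, −32 in E(spl)mbeta-HLH and E(spl)m5-HLH, −29 in E(spl)mgamma-HLH and −25 in E(spl)m3-HLH. E(spl)mdelta-HLH had only the 1-mismatch form, at −30. E(spl)m8-HLH had an exact box at −43, outside the window. With the window widened to −60 to −15, a choice made after that box was seen, 6 of 7 genes had an exact box against 8.83% of TSSs. No member had the box in the same window moved 200 bp downstream. Only 7.21% of TSSs had it there, so no match in 7 genes says little. The initiator was the other common element: its A lay between −10 and 10, with at most 1 mismatch, in 6 of 7 genes, against 49.6% of TSSs. E(spl)mgamma-HLH lacked that match. The A lay at 1 in E(spl)mbeta-HLH and E(spl)m7-HLH, at 3 in E(spl)m5-HLH and at 5 in E(spl)mdelta-HLH. In E(spl)m3-HLH (10) and E(spl)m8-HLH (−9) it lay near the edge of the window. Without mismatches the initiator was found at 4 of 7, against 14.5% of TSSs. E(spl)m5-HLH alone had a DPE, at position 28 counted from its initiator A as 1 (7.60% of TSSs), and E(spl)m3-HLH alone had the MTE, another downstream element (1.27%) and Motif 7 (6.38%). The Zelda motif, CAGGTAG, matched only at E(spl)m5-HLH, at −93 (0.847% of TSSs). E-boxes (CANNTG) matched between −100 and 50 in 2 of 7 genes, against 55.9% of TSSs. Motif 1 (8.74% of TSSs), Motif 6 (7.16%) and the DNA replication-related element (11.0%) matched in none of the 7. The TCT initiator (0.566%) and the GAGA motif (4.11%) did not match either. These elements are found at many housekeeping or paused promoters, but at such low shares no match in 7 genes says little.

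The deposited lists give each region a height, the authors' signal value, whose unit is not stated. Each replicate and the pooled reads have a list of 30000 regions that includes background. The optimal set, chosen by the authors for reproducibility, is the 3897 highest pooled regions; heights in it began at 74.1, reached 1496 and were 112 at the median. Sequencing depth is unknown, so no counting interval is given. Of the 7 genes, 5 had an optimal summit in the gene or within 2 kb: E(spl)mdelta-HLH, E(spl)mbeta-HLH, E(spl)m3-HLH, E(spl)m7-HLH and E(spl)m8-HLH. Of all protein-coding genes 34.3% did, and of those no longer than 1500 bp 22.3% did. All 7 had a pooled region by that rule, against 75.9% of genes. Within 250 bp of the TSS, the distance used for a bound promoter, the picture was different. Only E(spl)mbeta-HLH had an optimal summit there, 1 of 7 against 17.6% of genes, which is close to the background. A pooled summit of any height lay there in 5 of 7, against 48.5%. E(spl)mbeta-HLH was also the only member with a summit within 250 bp among the 3897 highest of both replicates, against 12.9% of genes. An optimal summit more than 250 and at most 1000 bp upstream of the TSS was found for 2 genes, E(spl)m3-HLH and E(spl)m7-HLH, against 8.39% of genes. That upstream class was added after the data had been seen.

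**Figure D1:**
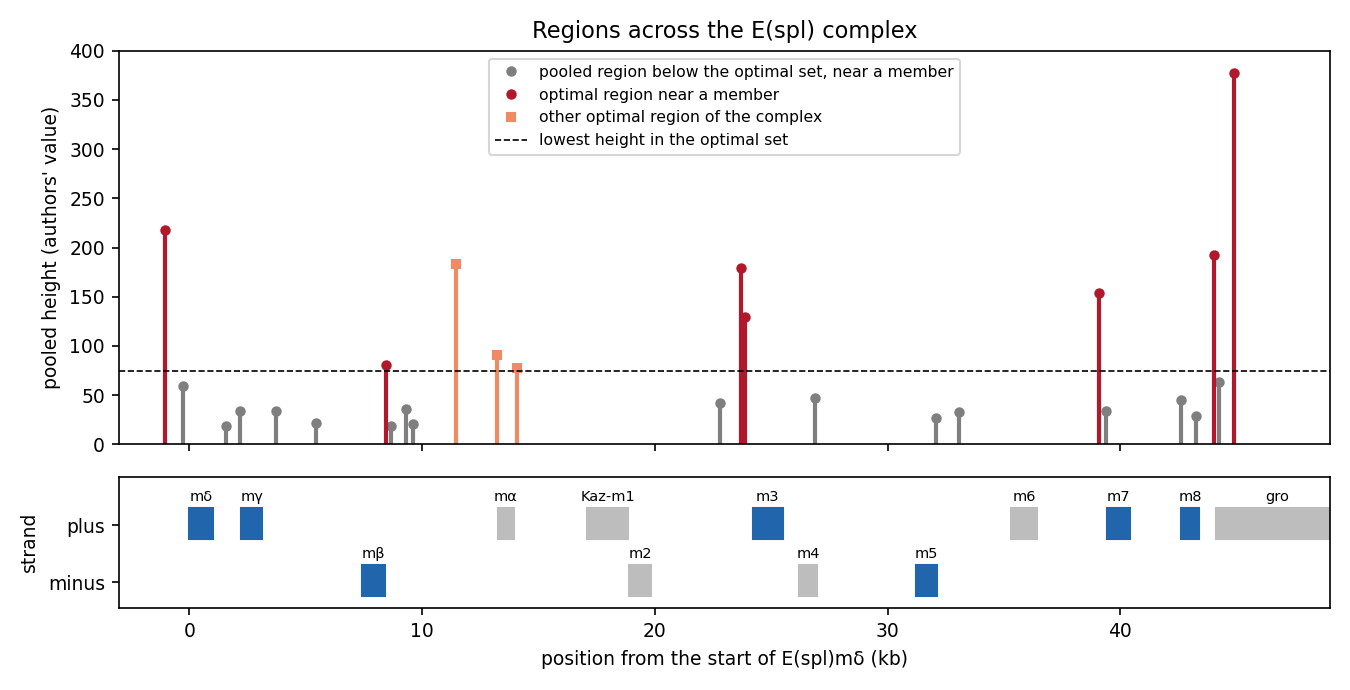
Pooled height (authors' value, linear axis from 0) of the regions near the bHLH genes, and of the other optimal regions of the complex, against position in kb from the start of E(spl)mdelta-HLH, with bHLH genes in blue and other genes in grey below. Pooled regions below the optimal set that are near no bHLH gene are not drawn. Red stems of 377 and 192 stand at the gro promoters. Among the bHLH genes only E(spl)mbeta-HLH has a red stem at its own start, at a height of 80.5. E(spl)mgamma-HLH and E(spl)m5-HLH have no red stem within 2 kb.

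The span from E(spl)mdelta-HLH to E(spl)m8-HLH held 7 optimal and 32 pooled summits. Its density of 161 optimal summits per Mb compares with 29.1 per Mb over all arms. When the arms were divided into 3082 windows of the same length, 1.36% had at least as many optimal summits, the median window had 1 and the fullest 11. Neither comparison was matched for the number of genes in a window, and the span holds other protein-coding genes besides the members. The 32 pooled summits were not set against a background. Of the 7 summits inside the span, 4 lay near bHLH genes, at E(spl)mbeta-HLH, E(spl)m3-HLH (a pair) and E(spl)m7-HLH. The other 3 lay around E(spl)malpha-BFM, a Bearded-family gene that antagonises the ubiquitin ligase Neuralized. Their heights were 183 for the summit at −1822 from its TSS, 91.0 for that at −49 and 77.4 for that at 791 bp downstream. Near the members there were 23 pooled regions in all. Of these, 7 were optimal and 16 below the set, and 3 of the 7 optimal ones lay just outside the ends of the span. No 50-base sequence within 200 bp of any of the 23 summits was found elsewhere in the genome, so the similar genes do not share reads of that length there.

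E(spl)mbeta-HLH, whose enhancer is widely used to report Notch activity, had its optimal region at chr3R:26005881-26006280 with the summit 58 bp upstream of the TSS. Its pooled height was 80.5, at rank 3430 of 30000, and its heights were 46.8 in replicate 1 and 45.0 in replicate 3. Relative height, which divides a region's height in a replicate by that replicate's median over the optimal regions (68.8 in replicate 1 and 46.1 in replicate 3), was 0.680 and 0.977, or 0.829 ± 0.210 (mean ± SD, n = 2). It was below the median optimal region in both replicates. In replicate 1 its rank was 3881, just inside the highest 3897, and in replicate 3 it was 2062. The replicate summits lay at 10 and −57. Over the 2450 genes with an optimal summit within 250 bp of a TSS, the offset had a median of −83 and quartiles of −143 and −25, so this summit sat inside the middle of that range. It ranked 2171 of those 2450 genes by height. CG45089 and CG9663 stood just above it, both at 80.5, and lawc and Efa6 just below at 80.4 each.

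E(spl)m3-HLH, among the genes that respond most strongly to Notch in cultured Drosophila cells, had a pair of optimal regions upstream and none at its TSS. The farther one, chr3R:26021246-26021352, had its summit at −518 with a pooled height of 179 and rank 820. It reached 85.6 in replicate 1 and 92.2 in replicate 3, a relative height of 1.24 and 2.0 (1.62 ± 0.534, SD, n = 2). The nearer one, chr3R:26021444-26021602, had its summit 200 bp away at −318, with a height of 129.8 and rank 1475. Its replicate heights were 58.5 and 62.9, a relative height of 0.851 and 1.37 (1.11 ± 0.364, SD, n = 2). In both replicates the farther region was the higher, and both regions stood relatively higher in replicate 3. The farther summit lay at −229 from the TSS of the non-coding gene lncRNA:CR43644, so it can be assigned to either gene. No region of any list had a summit within 250 bp of the E(spl)m3-HLH TSS, in the pooled reads or in either replicate.

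E(spl)m7-HLH, which blocks bristle formation when overexpressed, had an optimal region at chr3R:26036525-26036924 with its summit at −313. Its pooled height was 154 at rank 1109, with 104 in replicate 1 and 50.1 in replicate 3. The relative height was 1.51 and 1.09 (1.30 ± 0.301, SD, n = 2), here higher in replicate 1. A second, overlapping region had its summit at −14, with a pooled height of 33.9 and rank 11896. That region had no summit within 250 bp in replicate 1, while replicate 3 gave it a height of 38.5, a relative height of 0.835 and rank 2689. In replicate 3 alone, E(spl)m7-HLH therefore counted among genes with one of the 3897 highest regions at the TSS.

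E(spl)mdelta-HLH, which sets the fate of photoreceptor R4 in the eye, had an optimal region farther upstream, at chr3R:25996513-25996716 with its summit at −1026. Its height was 218 at rank 542, with 139 in replicate 1 and 93.0 in replicate 3. The relative height of 2.01 and 2.02 (2.02 ± 0.00229, SD, n = 2) was the most even of the optimal regions near these genes. This summit lay in an intron of the neighbouring gene CG43116, 401 bp downstream of that gene's TSS, so its assignment to E(spl)mdelta-HLH rests on distance alone. Nearer the gene, a region with its summit at −259 had a pooled height of 59.5 and rank 5404, below the lowest optimal height of 74.1. Its heights were 32.9 and 30.2, with relative heights of 0.478 and 0.655. The replicate 1 summit of that region lay at −217, inside 250 bp, and the pooled one just outside.

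E(spl)m8-HLH, named for the classic Enhancer of split mutation, which truncates it, had no optimal region upstream or in the gene. A weak region sat on its TSS with the summit at 4, a pooled height of 45.2 and rank 7934. Replicate 1 gave it 18.9 and replicate 3 gave it 26.4, relative heights of 0.275 and 0.573. Both optimal regions within 2 kb of the gene lay downstream, at the promoters of gro, which encodes the Groucho corepressor. The one at chr3R:26041554-26041717 had its summit 78 bp upstream of a gro TSS, a height of 192 and relative heights of 1.77 and 1.52 (1.64 ± 0.179, SD, n = 2). The one at chr3R:26042370-26042624 lay 132 bp upstream of another gro TSS, inside a gro intron. Its height of 377 at rank 160 was the highest near any member, with relative heights of 3.16 and 3.49 (3.32 ± 0.231, SD, n = 2). Between them a lower region at 128 bp downstream of the first gro TSS had a height of 63.2. It reached 55.4 in replicate 1 and 13.99 in replicate 3, a log2 ratio of relative heights of −1.41, the largest in size among the 16 regions found in both. Without the gro promoters, 4 of the 7 genes would have an optimal region within 2 kb.

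E(spl)mgamma-HLH, which is active in neural stem cells, and E(spl)m5-HLH, expressed in proneural clusters, had no optimal region in the gene or within 2 kb. At E(spl)mgamma-HLH the region at the TSS had its summit at −44 and a height of 33.8, with 22.2 in replicate 1 and 22.5 in replicate 3. Another at 1495 bp downstream of the TSS, in the non-coding gene lncRNA:CR45037, had a height of 34.1. At E(spl)m5-HLH the region at the TSS had its summit at 33 and a height of 26.8, with 19.7 and 10.1 in the replicates, the latter next to the lowest height of 10.04 in the replicate 3 list. A region at −938 had a height of 32.7 and no match in replicate 1. The pooled list had a median height of 29.0, which 3 of these 4 heights exceeded and the region at the E(spl)m5-HLH TSS did not. At E(spl)mgamma-HLH and E(spl)m5-HLH a summit within 250 bp of the TSS was listed in both replicates, at relative heights of 0.220 to 0.487. The replicate summits were far apart, at 134 and −134 in E(spl)mgamma-HLH and at −98 and 126 in E(spl)m5-HLH. Neither region had a match in both replicates when the pooled and replicate summits had to lie within 100 bp.

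**Figure D2:**
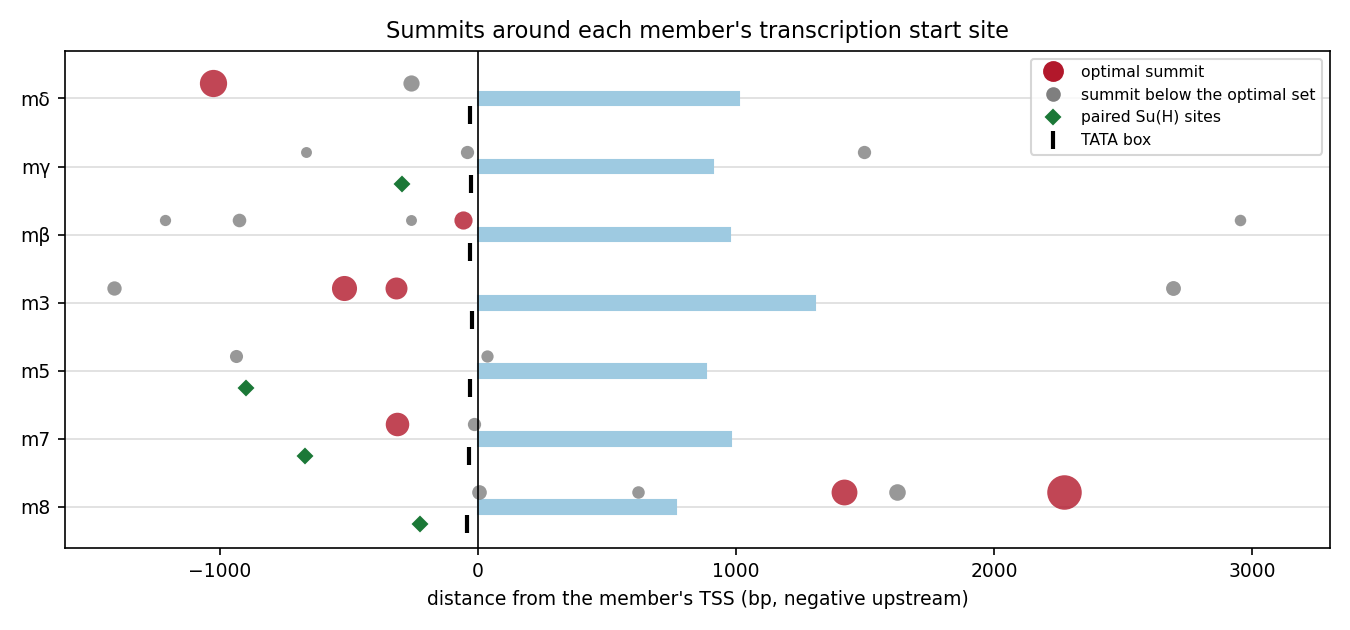
Distance in bp from each bHLH gene's TSS to the summits assigned to it as the nearest bHLH gene (dots, larger for higher regions), with the gene body as a bar, the TATA box as a black tick and paired Su(H) sites as diamonds. Red dots stand at −1026, −518, −318, −313 and −58, and the red dots at 1418 and 2269 on the E(spl)m8-HLH line are the gro promoters.

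All 7 optimal regions were found in both replicates, as were 3884 of the 3897 in the whole set. All 7 were also among the highest 3897 of each replicate, for which the share over the set is not given here. Between replicates, the log2 ratio of relative heights (replicate 3 over replicate 1) ran from −0.48 at E(spl)m7-HLH to 0.68 at both E(spl)m3-HLH regions. For the 3884 optimal regions matched in both replicates the median was −0.01 and the 5th and 95th percentiles were −0.93 and 0.75, so none of the 7 stood outside that range. In each replicate the downstream gro region was the highest of the 7, the region upstream of E(spl)mdelta-HLH the second and E(spl)mbeta-HLH the lowest. In between, the replicate values of neighbours in the order (the upstream gro region, E(spl)m3-HLH at −518, E(spl)m7-HLH, E(spl)m3-HLH at −318) overlapped, and those of E(spl)m3-HLH at −318 also overlapped with E(spl)mbeta-HLH. Of the 16 regions below the set, 9 had a match in both replicates. The share over all pooled regions below the set is not given here, so that count has no background. The optimal set was chosen for reproducibility, so part of this likeness is built in.

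**Figure D3:**
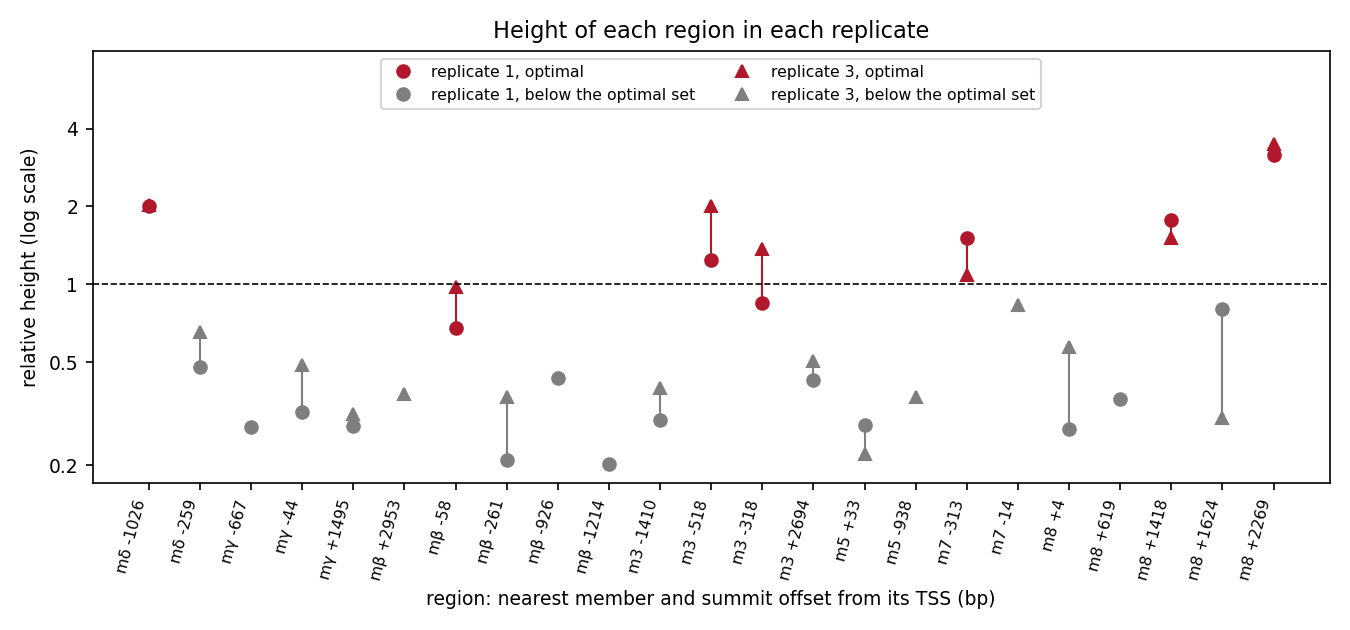
Relative height (log scale) of the 23 regions in replicate 1 (circles) and replicate 3 (triangles), in order along the complex, joined where both exist, with the median optimal region as the dashed line at 1. The 7 optimal regions run from 0.680 to 3.49, and the regions below the set all lie under 1.

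Within 100 bp, the optimal summits upstream of the genes lay in AT-rich sequence, unlike the one at E(spl)mbeta-HLH. The sequence within 50 bp of each of those summits is given on the plus strand so that the composition can be seen, and capitals mark runs of 6 or more A or T.
E(spl)mdelta-HLH, summit at −1026, chr3R:25996545-25996645: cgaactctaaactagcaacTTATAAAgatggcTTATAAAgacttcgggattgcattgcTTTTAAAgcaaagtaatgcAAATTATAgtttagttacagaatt
E(spl)m3-HLH, summit at −518, chr3R:26021255-26021355: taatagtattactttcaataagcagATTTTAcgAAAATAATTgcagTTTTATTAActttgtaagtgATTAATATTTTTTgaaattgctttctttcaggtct
E(spl)m3-HLH, summit at −318, chr3R:26021455-26021555: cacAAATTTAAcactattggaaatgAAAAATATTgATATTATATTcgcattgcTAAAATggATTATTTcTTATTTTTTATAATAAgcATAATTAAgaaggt
E(spl)m7-HLH, summit at −313, chr3R:26036675-26036775: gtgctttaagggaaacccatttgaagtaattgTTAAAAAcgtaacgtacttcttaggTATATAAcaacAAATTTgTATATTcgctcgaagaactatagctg
E(spl)mbeta-HLH, summit at −58, chr3R:26006031-26006131: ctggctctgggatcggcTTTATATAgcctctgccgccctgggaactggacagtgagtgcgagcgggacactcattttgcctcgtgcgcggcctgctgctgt

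GC content was added to the description after the data had been seen. Within 100 bp of the summit, GC content was 26.9% and 29.9% at the E(spl)m3-HLH regions, 29.4% at E(spl)m7-HLH and 32.3% upstream of E(spl)mdelta-HLH, against 58.7% at E(spl)mbeta-HLH. Optimal summits as a whole were AT-rich, with a median of 37.8%, against 42.2% for the arms and 44.8% for the pooled regions below the set. Among the 1941 optimal summits more than 250 bp from a TSS the median was 36.3% and the quartiles 32.8% and 40.8%, so these upstream summits were all below the first quartile of that class at this window. Within 200 bp, where the median of the class was 39.7%, the region upstream of E(spl)mdelta-HLH had 41.1%, above that median, and the other 3 had 32.9 to 35.7%. At or below the value of the −518 region of E(spl)m3-HLH stood 2.58% of the class, and at or below that of E(spl)mdelta-HLH 23.4%. At E(spl)mbeta-HLH the GC content was higher than or equal to that of 99.6% of all optimal summits. The weak regions on the other TSSs had 54.2% at E(spl)mgamma-HLH, 49.8% at E(spl)m5-HLH, 53.7% at E(spl)m7-HLH and 45.8% at E(spl)m8-HLH. For pooled regions below the set the third quartile was 51.7%, which only E(spl)mgamma-HLH and E(spl)m7-HLH exceeded. Within 50 bp, E(spl)m5-HLH had 40.6% and E(spl)m8-HLH 43.6%, both below the median of 45.5% for those regions. In the longest run of the −318 region, 16 bases in a row were A or T. An exact TATA box on either strand lay within 50 bp of the summit in 2 of the 7 optimal regions, E(spl)mbeta-HLH, where it is the promoter's own, and E(spl)m3-HLH at −318. The share over all optimal summits was 10.3%. GC content can affect how well fragments are amplified and sequenced, and its part in these heights was not tested.

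**Figure D4:**
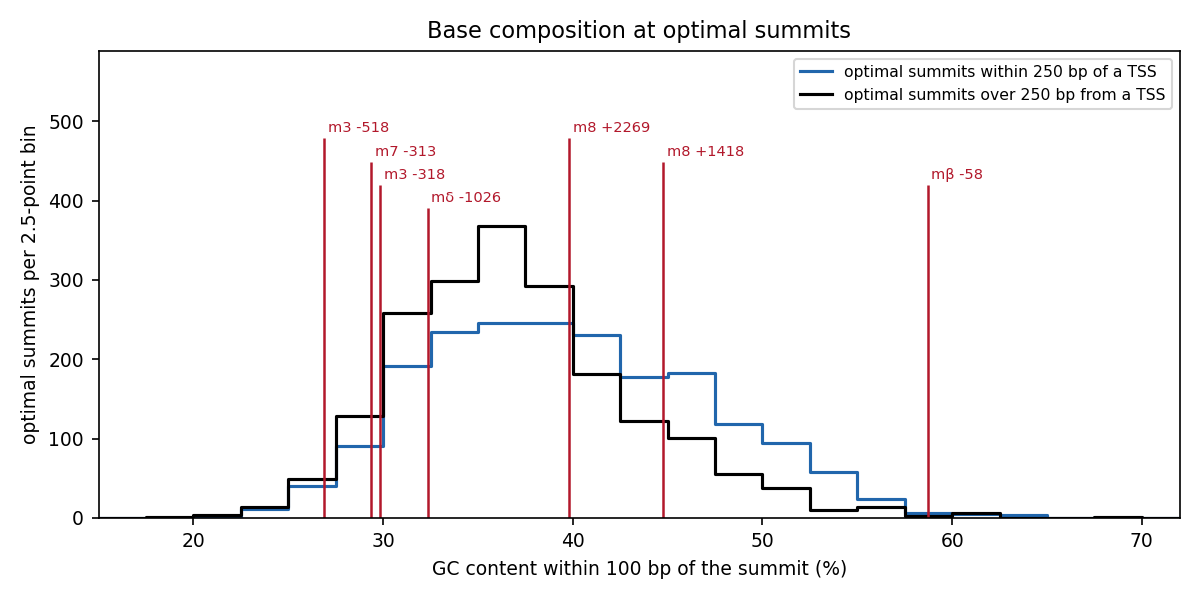
Number of optimal summits per bin of GC content (%) within 100 bp, for those within 250 bp of a protein-coding TSS (blue) and the others (black), with the 7 optimal regions near bHLH genes as red lines. The regions upstream of E(spl)m3-HLH, E(spl)m7-HLH and E(spl)mdelta-HLH lie between 26.9 and 32.3% and E(spl)mbeta-HLH at 58.7%.

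Sites for the Notch effector Su(H) were set beside the summits. A site was CGTGGGAA, CGTGAGAA, TGTGGGAA or TGTGAGAA on either strand. Within 1000 bp upstream of the TSS, 5 of the 7 genes had at least 1, against 10.2% of TSSs, and E(spl)mdelta-HLH and E(spl)m3-HLH had none. Inverted pairs of Su(H) sites are the arrangement at which dimers of the Notch complex assemble. They are shown as a known Notch input of some E(spl) genes. They were sought with 20 to 35 bp between the starts of the sites, a window set for this search, and found at 4 members. Whether dimers assemble at each of these pairs was not tested. Of all 19253 TSSs only 6 (0.0312%) had such a pair, the others being E(spl)m4-BFM of the same complex and mRpL10. The lines run on the gene's strand, with the sites in capitals.
E(spl)mgamma-HLH, chr3R:25999551-25999595, plus strand: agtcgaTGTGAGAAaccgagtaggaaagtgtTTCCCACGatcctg
E(spl)m5-HLH, chr3R:26030591-26030640, minus strand: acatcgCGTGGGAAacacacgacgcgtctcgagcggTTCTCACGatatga
E(spl)m7-HLH, chr3R:26036363-26036407, plus strand: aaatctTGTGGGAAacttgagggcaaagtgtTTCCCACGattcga
E(spl)m8-HLH, chr3R:26040010-26040054, plus strand: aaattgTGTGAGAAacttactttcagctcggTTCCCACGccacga

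The pairs began at −294 in E(spl)mgamma-HLH, −899 in E(spl)m5-HLH, −669 in E(spl)m7-HLH and −224 in E(spl)m8-HLH, with a spacing of 30 bp in E(spl)m5-HLH and 25 bp in the other three. No pair lay under an optimal summit. The nearest optimal summit was 340 bp from the pair at E(spl)m7-HLH, 1626 bp at E(spl)m8-HLH, 2978 bp at E(spl)mgamma-HLH and 6110 bp at E(spl)m5-HLH. A weak pooled summit, of height 32.7, lay 58 bp from the E(spl)m5-HLH pair. Within 250 bp of the 7 optimal summits, 1 had a Su(H) site (E(spl)mbeta-HLH), against 5.65% of all optimal summits. A Hes site, CACGNG on either strand, which the E(spl) proteins themselves can bind, lay within 250 bp of 2 of the 7, against 32.7%. E-boxes (CANNTG, a class that overlaps CACGTG) lay near 6 of 7, against 91.8%, so neither count stood far from its background. Within 250 bp of the TSS, 5 of 7 genes had a Hes site, against 34.4% of TSSs, and 2 of 7 had a Su(H) site, against 5.35%.

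The 1 optimal summit on these promoters was set beside TATA promoters in general. Of the TSSs with an exact TATA box, 4.53% had an optimal summit within 250 bp, whereas of those without it 15.6% did. Among the 2867 TSSs with such a summit, 9.42% had a TATA box with at most 1 mismatch. E(spl)mbeta-HLH is 1 of 55 TSSs with both an exact TATA box and an optimal summit. Su(H) sites, TATA boxes and summits are matches and positions in these lists, and no cause follows from them.

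The other genes of the complex and of the pathway were described by the same call. Of the 6 other genes of the complex, gro (height 377) and E(spl)malpha-BFM (91.0) had an optimal summit within 250 bp of a TSS, and E(spl)m2-BFM (45.2), E(spl)m4-BFM (46.9) and Kaz-m1 (24.8), a protease inhibitor gene, had weaker pooled regions there. E(spl)m6-BFM had none. The 5 genes other than gro all had a TATA box with at most 1 mismatch. Of 4 Bearded-family genes elsewhere in the genome 2 were bound, Tom at a height of 112 and Brd at 78.9. Of 5 other Hes and Hey genes none was bound, with pooled regions at 3. Of 18 core genes of the Notch pathway 9 were bound, the highest being aph-1 (174), a subunit of gamma-secretase, numb (159.9), an inhibitor of Notch, and mam (135), the coactivator that joins Su(H). Of 8 genes in the proneural list, 1 was bound, da, which encodes the common partner of proneural proteins. None of the others in that list was bound. These shares are to be read against 17.6% of all genes. They were not matched for the number of TSSs per gene, which was 1 in each bHLH gene and 4 in gro.

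**Figure D5:**
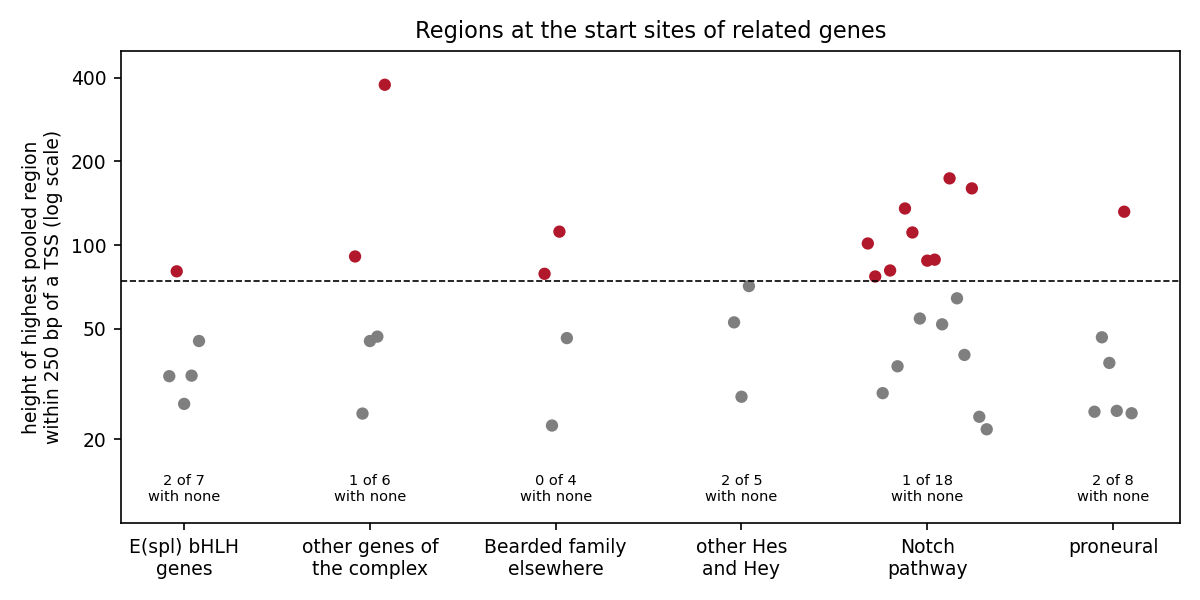
Pooled height (log scale) of the highest region within 250 bp of a TSS for each gene of the bHLH group and of related lists, red where it belongs to the optimal set and grey where it does not, with the number of genes without any region written below. The dashed line is the lowest optimal height, 74.1; 1 of the 7 bHLH genes and 9 of the 18 Notch pathway genes lie above it.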

How the data were processed

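Anti-GFP ChIP-seq was deposited for 2 biological replicates of whole embryos. The authors deposited lists of 30000 regions per replicate and for the pooled replicates, and an optimal set of 3897, in build dm6. In them each region has a height, which is the authors' signal value, used as a score with no stated unit and only to rank or describe regions within a list. They also hold the −log10 of the q value given by the authors, which was 4.08, its highest value, in every optimal region and was not used, and a summit offset. No aligner, peak caller or read total is given in the sources used here. The optimal regions were checked to be exactly the 3897 highest pooled regions. Lists in build dm3 were not used.

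Regions were set against the Release 6 genome (RefSeq) and the Ensembl release 115 annotation, after a check that all lay within the 6 arms. A region belonged to the nearest member whose gene or 2 kb flank held its summit. For each pooled summit the nearest replicate summit within 250 bp gave the replicate's height, and relative heights are mean ± SD with n = 2. Nothing says how separately the replicates were raised, so the spread may be technical in part. Elements and sites were sought by exact letters or at most 1 mismatch at unique TSSs (2 mismatches for the MTE). Python 3.11.15, pandas 2.3.3 and numpy 2.4.6 were used, and the code passed all 14 checks on simulated data. The members, lists and most alternatives were chosen with earlier results of these data known. The genes named were all members, the other genes of the complex, up to 3 genes of highest optimal promoter region per list, and neighbours in height. Symbols were matched to the annotation, with E(spl)m1 found as Kaz-m1, and 2 Bearded-family genes of the list, BobB and BobC, were not analysed here. Alternatives were other distances, the highest regions, each replicate alone, other matches and scalings, and other windows for the elements. No paired or group test was run.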

Additional observations from a re-analysis of the deposited data

How the results depend on the processing

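The count of genes with an optimal summit within 250 bp of the TSS, 1 in the report, depended most on the setting. It was 3 within 500 bp, 3 within 1000 bp, 3 by overlap of intervals, 0 with the highest 50% of optimal regions and 5 with all pooled regions. With each replicate alone it was 1 to 2, the second gene without replicate 1 being E(spl)m7-HLH. The count of genes with a high region at the TSS in both replicates was 0 with fewer regions (the highest 50%) and 4 with all 30000. Of all protein-coding genes, 48.5% had a pooled summit within 250 bp of a TSS. For the other alternatives of these counts the share of all genes is not given, so they have no background here. The counts within 2 kb stayed within 1.5 times their value under every alternative run (4 to 6 genes with an optimal region, 7 with a pooled one, 17 to 33 regions). The median relative height of the 7 optimal regions, 1.62, was 1.58 with the highest in place of the nearest replicate summit, 1.61 within 100 bp, and 1.62 when scaled to each replicate's own highest regions. The median best rank over the 7 genes, 1109, was 1313 to 1704 in single replicates. The median summit offset of the optimal regions, −313, was −296 to −270. The TATA count, 6, was 5 without mismatches and 0 with the window 200 bp downstream, where 7.21% of TSSs had a match. Alternatives chosen after seeing the data were the wider TATA window, the other upstream distances and the GC windows. The main upstream count (more than 250 and at most 1000 bp) and the GC content at summits were also added then. The median GC content of the 4 upstream summits, 29.6% within 100 bp, was 26.7% within 50 bp and 34.5% within 200 bp. For all optimal summits more than 250 bp from a TSS these medians were 36.3%, 34.7% and 39.7%. Within 50 bp the 4 values ran from 20.8% at the −318 region of E(spl)m3-HLH to 32.7% at E(spl)m7-HLH. Relative heights of single regions moved by more than 1 SD in 6 of 62 cases. No paired analysis was possible because there is 1 group. Limits are the lack of a control, of read totals and of more than 2 replicates, and the mixture of stages in whole embryos.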
